A study of Mus musculus with 10 samples.

Results

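This account follows 7 genes of MHC class II antigen presentation, H2-Aa, H2-Ab1, H2-Eb1, H2-DMa, H2-DMb1, Cd74 and Ciita, in bulk RNA from mouse quadriceps. They were taken by symbol from the deposited tables, keeping for each symbol the transcript with the most reads over all libraries, and are 7 of 24063 gene symbols. All 7 passed the filter on low counts, which left 13880 genes to test. The study compared 5 wild-type C57BL mice that drank the animal facility's water (Control) with 5 that drank water with 1C-MIM, a supplement not described further in the labels. The mice of both groups were 17 to 20 months old, the supplement ran for 1 to 3 months, and a tibialis anterior muscle had been injured in all of them, while the RNA came from quadriceps that were not injured. Libraries are named by group and number (Control 1 to 5, 1C-MIM 1 to 5), and n counts libraries, which the deposited names number as separate animals. Cages held at most 5 mice, and which mice shared a cage is not known here. As the supplement was in the water, an effect of cage cannot be told apart from it.

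MHC class II molecules are pairs of an alpha and a beta chain that carry peptides from endocytosed proteins to the cell surface, where CD4 helper T cells read them. The invariant chain, encoded by Cd74, plugs the peptide groove and escorts the pair to endosomes, proteases trim it away, and the H2-DM dimer exchanges its last fragment for an antigen peptide. In mice the genes are expressed mainly in dendritic cells, B cells and activated macrophages, under a coactivator, CIITA, that binds no DNA itself but sits on a complex of RFX, CREB and NF-Y factors assembled on the X and Y boxes of class II promoters. Muscle fibres express little or none, and in whole muscle the transcripts are usually ascribed to immune cells between the fibres.

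These are stretches of 4 class II promoters, and all 4 genes were called lower in 1C-MIM below. All 4 carry a Y box core, and 3 of them also the longer X box pattern marked here. The capitals mark the fixed search patterns, AGNN followed at once by ACNNATG for the X box (bound by RFX) and ATTGG for the core of the Y box (bound by NF-Y). Each stretch is written 5′ to 3′ on the gene's strand and ends before the annotated start. Sequences are from RefSeq, build GRCm38.p6, on chromosome 17.

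H2-Eb1, chr17:34305755-34305822, plus strand: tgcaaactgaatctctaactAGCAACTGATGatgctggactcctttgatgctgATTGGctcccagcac

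H2-DMb1, chr17:34153076-34153144, plus strand: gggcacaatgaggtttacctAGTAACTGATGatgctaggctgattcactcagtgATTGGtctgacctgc

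H2-Ob, chr17:34238797-34238862, plus strand: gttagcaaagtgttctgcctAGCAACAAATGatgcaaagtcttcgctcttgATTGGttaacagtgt

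H2-Aa, chr17:34287857-34287916, minus strand: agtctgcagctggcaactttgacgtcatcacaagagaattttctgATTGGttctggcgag

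In H2-Eb1 and H2-DMb1 the boxes were separated by 22 and 23 bases, and the first base of the Y box lay 59 and 61 bases before the start. H2-Ob, the beta chain of the DM inhibitor H2-O and no member of the set, had a spacing of 20 bases. H2-Aa held a Y box core 48 bases before its start, and no X box of the longer pattern. The shorter ACNNATG did occur in its window, with both strands searched, but not 10 to 30 bases before a Y box core. On both strands of 32851 promoter windows of 300 bases (250 before to 50 after a start), ATTGG was found in 37.4%, ACNNATG in 30.2% and the longer X box pattern that starts with AGNN in 3.09%. The pair, with the Y box 10 to 30 bases after the X box, was found in 23 windows (0.07%) of 22 genes. Of these genes 13 were in the expression tables, and 4 of the 13 were class II genes: H2-Eb1, H2-DMb1, H2-Ob and H2-Eb2. H2-DMa, also called lower below, is not printed. It had 2 windows, neither with the pair, and 1 of them held a Y box core 198 bases before the start. A missing pair says only that these letters are not in the window. H2-Ab1, Cd74 and Ciita are not shown.

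All 7 genes were lower in quadriceps of supplemented mice. Log2 fold changes ran from -0.97 to -0.59, with a median of -0.79, where the median of all tested genes was 0.0009. Levels are given as CPM, a gene's share of its library's counts after TMM scaling. The threshold was an adjusted p under 0.05 (edgeR's quasi-likelihood test, Benjamini-Hochberg over all tested genes), and 11.8% of tested genes were called lower. For 6 of the 7 every 1C-MIM library lay below every Control library, which held for 7.98% of tested genes (the opposite order held for 6.6%). In such bulk samples, fewer cells of a type and less RNA per cell cannot be told apart.

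**Figure D1:**
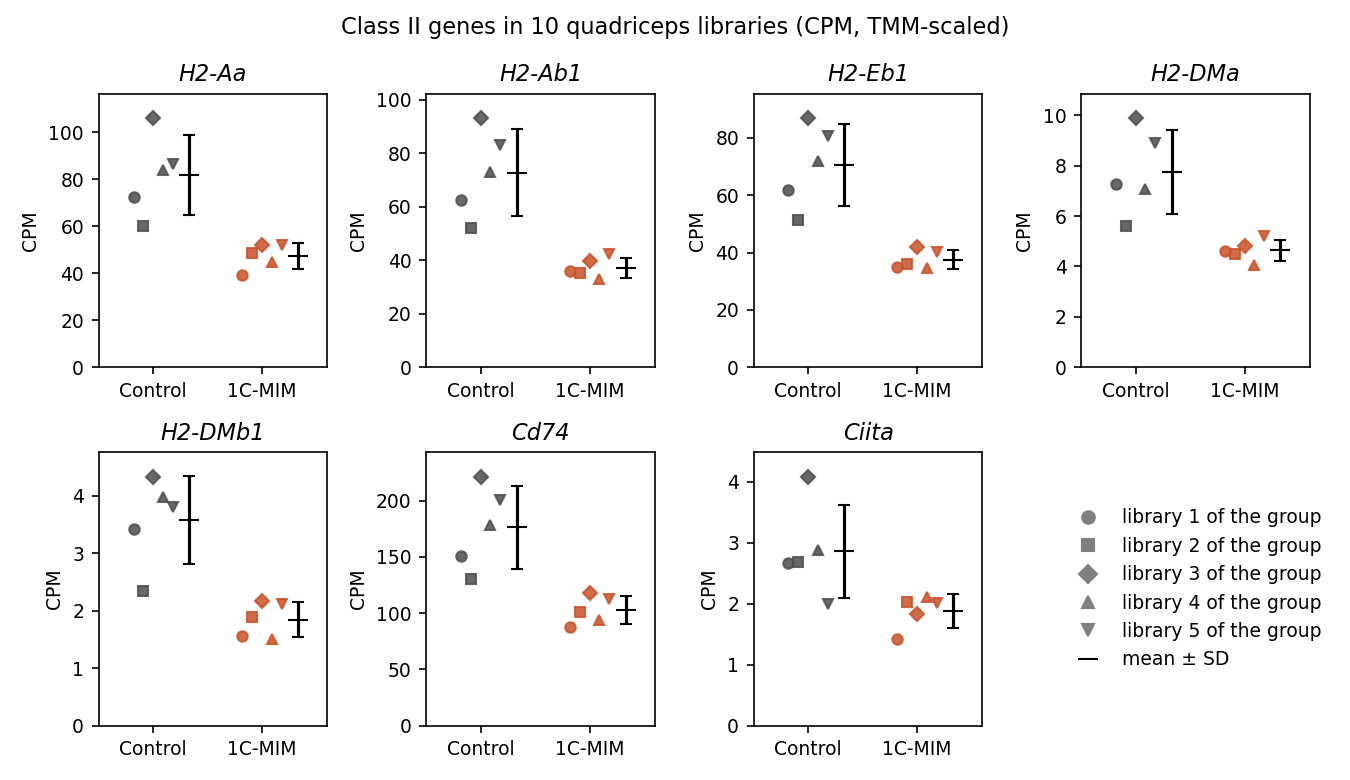
Expression of each class II gene in every library, in TMM-scaled CPM (vertical axis from 0), by group; symbols give the library number, and bars the mean ± SD of 5 libraries. Control 3 is the highest library in all 7 panels, and the groups overlap only for Ciita.

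H2-Aa and H2-Ab1 encode the alpha and beta chains of I-A, the class II molecule that C57BL mice display. H2-Aa stood at 72.5, 60.2, 105.9, 83.8 and 86.6 CPM in Control 1 to 5 and at 39.1, 48.7, 51.9, 44.9 and 52.1 CPM in 1C-MIM 1 to 5. The lowest Control, Control 2, was above the highest supplemented library. The Control mean was 81.8 ± 17.1 CPM and the supplemented mean 47.3 ± 5.44 CPM (SD, n = 5 each), for a log2 fold change of -0.79 (SE 0.13, adjusted p = 0.00245 by edgeR).

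H2-Ab1 showed the largest fold change of the 7. It stood at 62.5, 52.0, 93.1, 72.9 and 83.1 CPM in Control 1 to 5, and between 33.2 and 42.3 CPM in the supplemented libraries (35.8, 35.1, 39.7, 33.2 and 42.3). The groups were separated, and the log2 fold change was -0.97 (SE 0.14, adjusted p = 0.00108 by edgeR), or 0.512 of the Control level.

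H2-Eb1 encodes the beta chain of the second molecule, I-E. It was measured at 61.7, 51.5, 86.8, 72.0 and 80.7 CPM in Control 1 to 5 and at 34.9, 35.9, 41.9, 34.5 and 40.3 CPM in 1C-MIM 1 to 5. Control 2 was again the lowest Control and Control 3 the highest, with no overlap between the groups (log2 fold change -0.91, SE 0.12, adjusted p = 0.000735 by edgeR). Its partner, the I-E alpha chain gene listed as H2-Ea-ps, had 0 reads in all 10 libraries, which allows 0.0944 to 0.105 CPM (3 counts per library, counting error only). The class II haplotype of C57BL strains carries a deletion in this gene and forms no I-E dimer, and in these libraries reads were seen for the beta chain and none for the alpha chain.

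Cd74, the invariant chain, was the most abundant of the 7. Control 1 to 5 held 150.5, 130.1, 221.1, 178.6 and 200.6 CPM and 1C-MIM 1 to 5 held 87.9, 100.8, 118.3, 94.2 and 112.5 CPM. All supplemented libraries lay below Control 2, the lowest Control, and the log2 fold change was -0.78 (SE 0.13, adjusted p = 0.00286 by edgeR). Of its 2 deposited transcripts, the one not used had 41880 reads in all against 42345, so nearly all reads were counted for both and the isoforms cannot be told apart here.

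H2-DMa and H2-DMb1 encode the chains of H2-DM, the endosomal peptide exchanger. H2-DMa stood at 7.29, 5.61, 9.88, 7.09 and 8.92 CPM in Control 1 to 5 and at 4.63, 4.5, 4.82, 4.07 and 5.19 CPM in 1C-MIM 1 to 5. The gap between the groups was small, from 5.19 to 5.61 CPM, and the log2 fold change was -0.73 (SE 0.14, adjusted p = 0.00362 by edgeR). H2-DMb1 stood at 3.42, 2.35, 4.32, 3.98 and 3.80 CPM in Control 1 to 5 and at 1.55, 1.89, 2.16, 1.5 and 2.12 CPM in 1C-MIM 1 to 5. It also separated the groups, with a log2 fold change of -0.93 (SE 0.17, adjusted p = 0.00296 by edgeR) on 45 to 140 reads per library.

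Ciita, the coactivator, had 41 to 132 reads per library and the smallest fold change. It stood at 2.67, 2.67, 4.08, 2.89 and 1.99 CPM in Control 1 to 5 and at 1.42, 2.03, 1.83, 2.1 and 2.02 CPM in 1C-MIM 1 to 5. Control 5 lay within the supplemented range, so the groups overlapped. The log2 fold change was -0.59 (SE 0.18, adjusted p = 0.0306 by edgeR). The call was lost without Control 3 (-0.43, adjusted p = 0.0699 by edgeR), and also without any one of Control 4 and libraries 1, 3 and 4 of the 1C-MIM group (-0.63 to -0.51, adjusted p = 0.0542 to 0.0669 by edgeR). The 3 deposited Ciita transcripts differ by at most 2 reads in any library, so promoter use, which distinguishes Ciita of dendritic cells, of B cells and of interferon-treated cells, is not resolved.

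Fold changes followed transcript length in these libraries: the median log2 fold change was -0.15 over the shortest 25% of tested transcripts (up to 1776 bases) and 0.17 over the longest 25% (from 4266 bases). The class II transcripts other than Ciita are short, 1069 to 1669 bases, and Ciita has 5359. With each library's length trend removed, all 7 genes were still called lower, at -0.59 for H2-Aa, -0.78 for H2-Ab1, -0.77 for H2-Eb1, -0.61 for Cd74, -0.60 for H2-DMa and -0.76 for H2-DMb1 (adjusted p = 0.00187 to 0.0219 by edgeR). Ciita moved the other way, to -0.70 (SE 0.16, adjusted p = 0.00799 by edgeR). The animal numbers in the deposited names form 2 series. In the series with 3 libraries per group the 7 fold changes were -0.90 to -0.70, with adjusted p = 0.0881 to 0.143 by edgeR, all 7 with an unadjusted p under 0.05. In the series with 2 per group they were -1.08 to -0.24 and 5 passed, the smallest being Ciita's (adjusted p = 0.568 by edgeR).

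Per transcript length, on the deposited TPM scale, the genes kept 1 order in all 10 libraries. Mean Control levels were 122.4 TPM for Cd74, 75.4 for H2-Aa, 59.9 for H2-Ab1, 41.5 for H2-Eb1, 4.60 for H2-DMa, 2.74 for H2-DMb1 and 0.530 for Ciita. In 1C-MIM they were 72.6, 44.3, 31.1, 22.4, 2.79, 1.44 and 0.353 TPM. Neighbours among the first 4 overlapped in range between libraries (Cd74 at 92.2 to 162.0 and H2-Aa at 56.5 to 102.8 TPM in Control), although within every library the order held. H2-DMa RNA was far scarcer than H2-Aa RNA, at 6.25% of its level on average (SD 0.598, range 5.45 to 7.63%, n = 10 libraries). Protein was not measured.

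**Figure D2:**
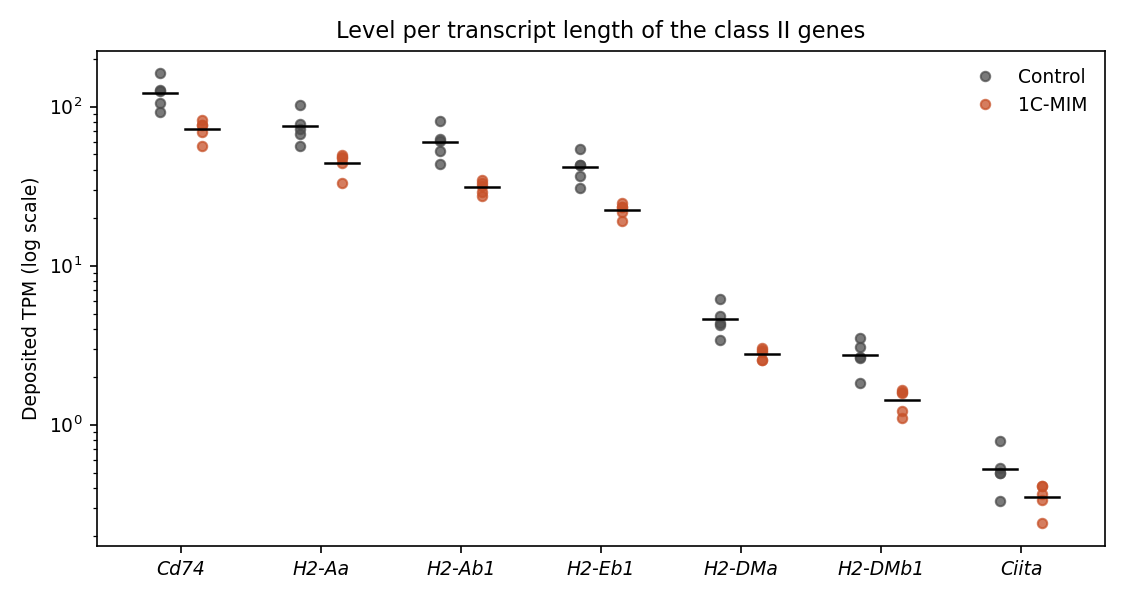
Deposited TPM of each class II gene (vertical axis, log scale), with a point per library and a line at the mean of 5 Control or 5 1C-MIM libraries. Genes are ordered by their Control mean, from Cd74 at 122.4 to Ciita at 0.530 TPM.

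The proportions between members overlapped between the groups. The TPM ratio of invariant chain to alpha chain, Cd74 over H2-Aa, was 1.63 ± 0.0733 in Control and 1.64 ± 0.0684 in 1C-MIM (SD, n = 5 each), with overlapping ranges. H2-Aa over H2-Ab1 was 1.16 to 1.29 in Control and 1.22 to 1.55 in 1C-MIM, where only 1C-MIM 1 lay inside the Control range. H2-Eb1 over H2-Ab1 was 0.667 to 0.708 in Control and 0.681 to 0.754 in 1C-MIM. H2-DMb1 over H2-Ab1 was 0.0458 ± 0.0045 and 0.0459 ± 0.0046 (SD, n = 5 each). None of the 9 ratios examined separated the groups.

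Within groups, the members other than Ciita deviated together from library to library. After the group means were removed from log2 CPM, Pearson's r over the 10 libraries was 0.828 to 0.982 for the 15 pairs without Ciita, the closest being H2-Ab1 with H2-Eb1. For the 6 pairs with Ciita it was 0.170 to 0.517. These are descriptions over libraries that share scaling and composition. Control libraries also spread more widely than supplemented ones: the summed level of the 7 genes was 304.4 to 525.2 CPM in Control (415.4 ± 86.5) and 205.3 to 260.5 CPM in 1C-MIM (233.1 ± 24.7, SD, n = 5 each).

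Of 12450 other genes with a mean log2 CPM of at least 0, the 10 whose deviations within groups were most like those of the 7 genes had r of 0.938 to 0.972 (n = 10 libraries). The first was C1qa, a chain of complement C1q made by macrophages (0.972), followed by Cd209f, a C-type lectin (0.965), and Ninj1 (0.950). Next were Arpc1b, a subunit of the Arp2/3 actin complex (0.949), and the class I genes H2-L (0.947) and H2-D1 (0.943). Tmem176b (0.943), Cfp, the complement regulator properdin (0.941), Spi1, the myeloid transcription factor PU.1 (0.939), and Unc93b1, the escort of endosomal Toll-like receptors (0.938), completed the list. All 10 were called lower in 1C-MIM, against 11.8% of all tested genes. Cd209f, Ninj1 and H2-L lost the call with the length trend removed (adjusted p = 0.0589, 0.0991 and 0.192 by edgeR). Other immune genes looked up in this order differed widely. The macrophage genes Csf1r and Emr1 were at 0.913 and 0.849, B2m at 0.8, the leukocyte gene Ptprc at 0.585 and the protease gene Ctss at 0.512. The dendritic cell and macrophage integrin Itgax was far down, with r = -0.08, on only 14 to 25 reads per 1C-MIM library. H2-D1, which belongs to class I presentation, had mean levels of 194.1 CPM in Control and 145.5 CPM in 1C-MIM (log2 fold change -0.42, SE 0.09, adjusted p = 0.00673 by edgeR), and may share reads with the near-identical H2-L.

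Besides the members, 37 genes of the wider pathway were listed, 36 were in the tables and 29 could be tested. Of these 9 were lower, 0 higher and 20 not past the threshold, against 11.8% lower and 9.78% higher among all tested genes. Unadjusted p values under 0.05 were found for 2 genes in the higher direction by edgeR (Nfyb and Cd274). DESeq2 called 1 higher (Nfyb) and limma-voom 0, and with the length trend removed 2 were higher (Nfyb and Ifngr2) and 9 lower.

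**Figure D3:**
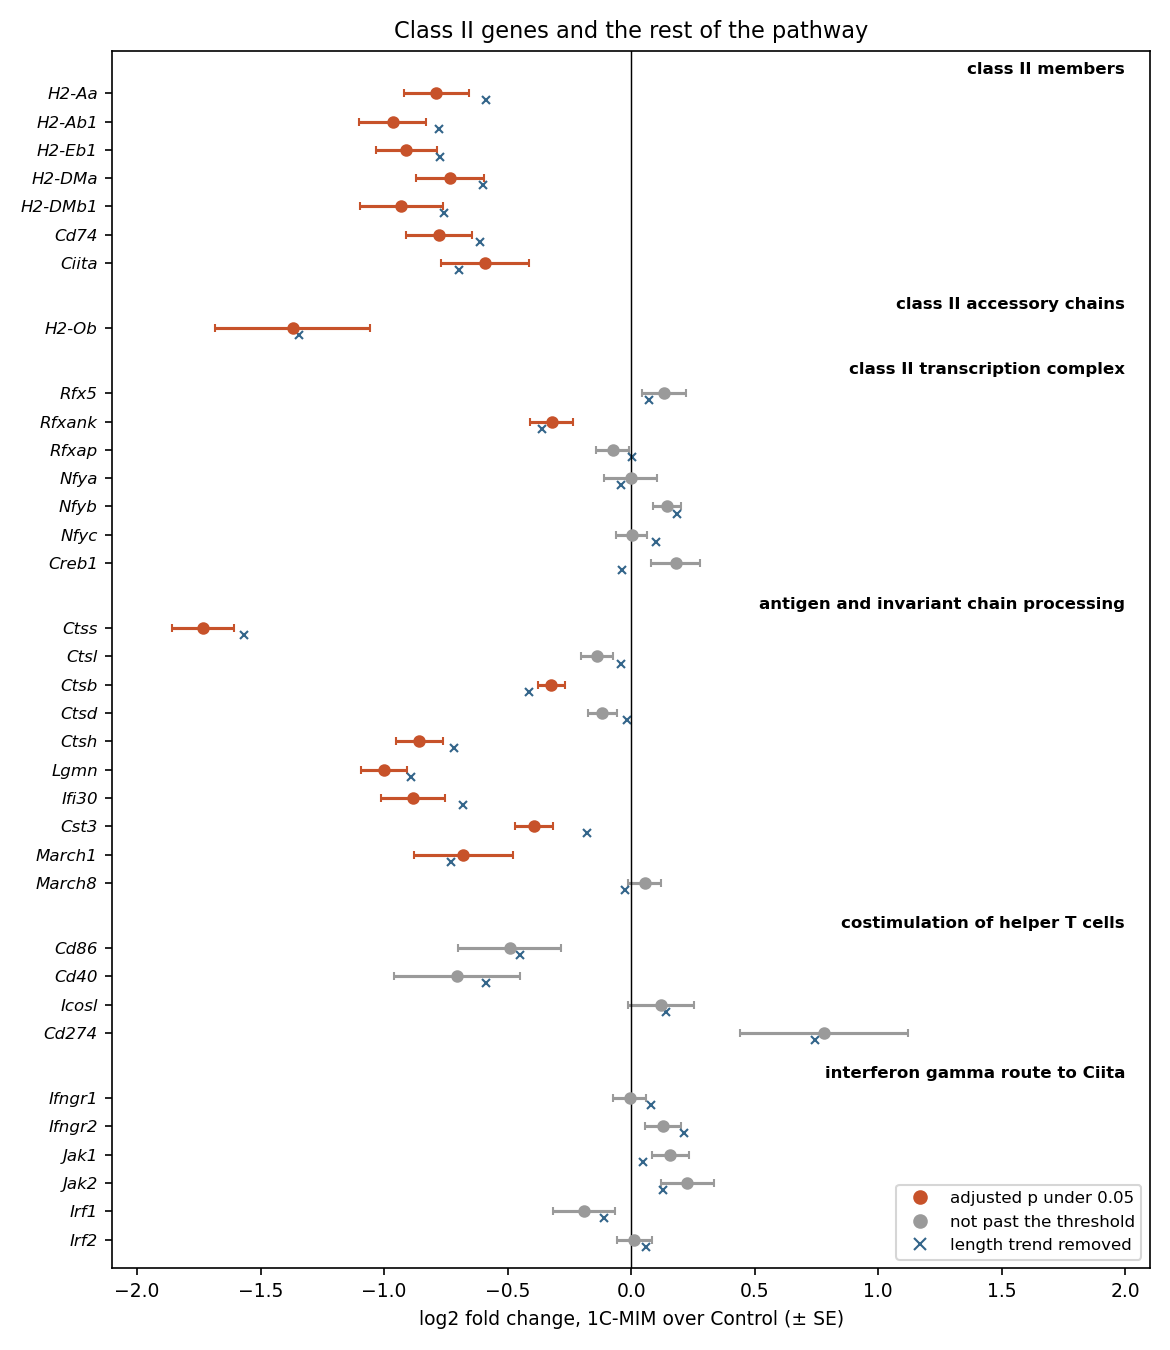
Log2 fold change of 1C-MIM over Control (horizontal axis, points with SE) for the 7 class II genes and the tested genes of the pathway lists, 1 of which is not shown; crosses give the value with the length trend removed. Members and most processing genes lie left of 0, while the transcription complex and the interferon gamma route lie between -0.32 and 0.23.

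Of these 9 genes, 7 belong to the list of antigen and invariant chain processing, of whose 10 tested genes 3 were not past the threshold (median -0.54). Ctss, cathepsin S, the protease that removes the invariant chain in dendritic cells and macrophages, stood at 38.7, 23.7, 34.9, 28.4 and 35.9 CPM in Control 1 to 5 and at 9.5, 8.69, 8.90, 9.94 and 11.3 CPM in 1C-MIM 1 to 5. The groups were far apart, with a log2 fold change of -1.73 (SE 0.13, adjusted p = 7.56e-06 by edgeR). Lgmn, the asparagine endopeptidase, fell by 1.00 (SE 0.09) and Ctsh, an aminopeptidase cathepsin, by 0.86 (SE 0.10), both without overlap. Ifi30, the thiol reductase that unfolds antigens, fell by 0.88 (SE 0.13), Cst3, the cathepsin inhibitor cystatin C, by 0.39 (SE 0.08) and Ctsb by 0.32 (SE 0.06). March1, the ubiquitin ligase that removes class II from the surface, was at -0.68 (SE 0.20, adjusted p = 0.0283 by edgeR), and its call was lost without any one of libraries 4 and 5 of Control and 1, 3, 4 and 5 of 1C-MIM (adjusted p = 0.0523 to 0.0681 by edgeR). Ctsl (-0.14), Ctsd (-0.12) and March8 (0.05) did not pass.

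The protease was also compared with its substrate, the invariant chain. The log2 ratio of Ctss to Cd74 was -2.66 to -1.96 in Control and -3.72 to -3.20 in 1C-MIM, a difference of -0.96 (exact permutation test over 252 assignments, two-sided p = 0.0079, the smallest they allow). This ratio was chosen after the values of both genes had been seen, so its p-value is no separate support. Both are RNA levels.

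In the transcription complex that CIITA sits on, 1 of 7 genes passed the threshold, where 21.6% of all tested genes passed in either direction. On so few genes this count is no separate result on the complex. Among its 7 genes, Rfxank, a subunit of RFX, was called lower (-0.32, SE 0.09, adjusted p = 0.0219 by edgeR) and 6 were not past the threshold (median 0.002). The Rfxank call was lost without Control 5, or without library 2 or 3 of 1C-MIM (adjusted p = 0.0516 to 0.06 by edgeR). Rfx5, which with Rfxank and Rfxap forms RFX, was at 0.13 (SE 0.09), and the NF-Y subunits Nfya, Nfyb and Nfyc were at -0.002, 0.14 and 0.002.

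On the route by which interferon gamma induces Ciita, 0 of 7 tested genes passed by edgeR, DESeq2 or limma-voom, and the unadjusted p was under 0.05 for 0, 2 (Jak1 and Jak2) and 1 (Jak2) of them. By edgeR 21.6% of all tested genes passed in either direction, so 0 of 7 is no separate result on this route. The receptor subunit Ifngr2 was at 0.13 (SE 0.07) and the kinase Jak1 at 0.16 (SE 0.07). Irf1, a factor that acts on the inducible Ciita promoter, was at -0.19 (SE 0.13). Transcripts of Ifng itself were at the limit of detection, with 0 to 3 reads per library. With the length trend removed, Ifngr2 was called higher (0.21, adjusted p = 0.0349 by edgeR), as was Jak2 with replicate number as a block.

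Costimulatory ligands, which T cells read beside class II, gave 0 of 4 tested genes past the threshold by edgeR, DESeq2 or limma-voom, and each tool gave an unadjusted p under 0.05 for Cd86, Cd40 and Cd274. With 21.6% of all tested genes past the threshold by edgeR in either direction, 0 of 4 is no separate result on these ligands. Icosl was at 0.12 (SE 0.13) and Cd274, the inhibitory ligand PD-L1, at 0.78 (SE 0.34, adjusted p = 0.119 by edgeR), with overlapping groups. With replicate number as a block, a pairing that no label gives, Cd274 was called higher (0.78, adjusted p = 0.00289 by edgeR). Cd86 and Cd40 were at -0.49 (SE 0.21) and -0.70 (SE 0.26), adjusted p = 0.103 and 0.063 by edgeR.

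Of the accessory class II chains, H2-Ob was the one with enough reads to test. It stood at 0.514, 1.83, 0.957, 1.19 and 0.909 CPM in Control 1 to 5 and at 0.415, 0.447, 0.266, 0.200 and 0.562 CPM in 1C-MIM 1 to 5, a log2 fold change of -1.37 (SE 0.31, adjusted p = 0.00984 by edgeR). Control 2, the lowest Control for 6 of the 7 members, was the highest for H2-Ob. H2-Oa, H2-DMb2 and H2-Eb2 had at most 21, 17 and 10 reads in any library, and H2-Eb2 had 3 to 10 reads in Control and 0 to 2 in 1C-MIM. Of the 13 genes with the X and Y box pair, 11 were tested, of which 4 were lower, 1 higher and 6 not past the threshold, against 11.8% lower and 9.78% higher among all tested genes. The lower genes were the members H2-Eb1 and H2-DMb1, H2-Ob and the proliferation marker Mki67 (-1.14, adjusted p = 0.00813 by edgeR). The higher gene was Hnrnpa1, which encodes an RNA-binding protein (0.20, adjusted p = 0.0326 by edgeR). H2-Eb1, H2-DMb1 and H2-Ob were already counted above, and outside class II only Mki67 was lower. The count is therefore no separate result on the pair.

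The class II genes on chromosome 17 alternate with genes of class I presentation, which allowed a comparison of neighbours. In RefSeq order from H2-Oa to H2-Ea, 15 genes were in the tables and 11 were tested. Of the 6 tested genes that were no members, only H2-Ob was called, where 21.6% of all tested genes were called in either direction. On 6 genes this count is no separate result on the neighbours. Between H2-DMb1 and H2-Ob lie Psmb9, Tap1, Psmb8 and Tap2, the immunoproteasome subunits and peptide transporter of class I, at -0.35 (SE 0.15), -0.24 (SE 0.23), -0.36 (SE 0.13) and -0.08 (SE 0.13). Their edgeR adjusted p values were 0.107, 0.484, 0.0576 and 0.655. Brd2, between H2-Oa and H2-DMa, was at 0.14. Psmb8 passed when Control 1, Control 2 or the third 1C-MIM library was left out (-0.43 to -0.42, adjusted p = 0.0269 to 0.0496 by edgeR), with DESeq2 and with library totals. Psmb9 passed without Control 1 (-0.44, adjusted p = 0.0464 by edgeR). Both passed with replicate number as a block (adjusted p = 0.0118 and 0.0477 by edgeR). With the length trend removed neither passed, at -0.18 for Psmb8 and -0.15 for Psmb9 (adjusted p = 0.307 and 0.516 by edgeR). The difference between class II and class I genes was not tested. Ciita lies on chromosome 16 and Cd74 on chromosome 18.

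Among markers of the cells that carry class II, 9 of 12 macrophage, all 5 pan-leukocyte and 3 of 9 tested dendritic cell genes were lower. Among all tested genes 11.8% were lower and 9.78% higher. Of 12 macrophage genes 9 were lower and 3 not past the threshold, with summed levels of 268.3 to 521.9 CPM in Control and 160.4 to 233.9 in 1C-MIM. The 3 were Mertk (0.32, SE 0.16), Cd163 (0.19, SE 0.17) and Mrc1 (-0.22, SE 0.17). Emr1, the macrophage surface protein F4/80 (current symbol Adgre1), was at -1.19 (SE 0.27, adjusted p = 0.0123 by edgeR) and the receptor Csf1r at -0.58 (SE 0.18, adjusted p = 0.0404 by edgeR). The Csf1r call was lost without any one library other than Control 2 (-0.63 to -0.44, adjusted p = 0.0545 to 0.105 by edgeR) and with the length trend removed (adjusted p = 0.0503 by edgeR). All 5 pan-leukocyte genes were lower (43.2 to 64.6 and 24.6 to 28.8 CPM). Of 11 dendritic cell genes 9 were tested and 3 were lower, Itgax, Batf3 and Irf8, and the summed level was 20.9 to 22.5 CPM in Control and 16.2 to 18.9 in 1C-MIM. The other 6 did not pass, and they lay on both sides of 0: Flt3, a receptor of classical dendritic cells, at -0.72 (SE 0.29), Clec9a at -0.02 (SE 0.16), Cd209a at 0.25, Xcr1 at 0.33, Zbtb46 at 0.40 and Siglech at 0.65. The median of the 9 was -0.02. B cell genes were near the limit of detection: 3 of 8 were tested, and the 8 together summed to 1.23 to 6.91 CPM in Control and 0.996 to 2.40 in 1C-MIM, highest in Control 2. Among them Cd79b was at -1.22 (SE 0.36, adjusted p = 0.0311 by edgeR), and lost its call without Control 2 (-0.85, adjusted p = 0.0605), without Control 4 and without libraries 2, 3, 4 or 5 of 1C-MIM (adjusted p = 0.0521 to 0.0802 by edgeR). By edgeR Cd79a (-1.27, SE 0.45) did not pass, and its value was -0.70 without Control 2. It was called by DESeq2 (-1.44, adjusted p = 0.028) and by edgeR without Control 1 (-1.46, adjusted p = 0.0307) or Control 5 (-1.43, adjusted p = 0.0469), and Ms4a1 had too few reads. Of the 6 T cell genes found, 3 were tested and 2 were lower (Cd4 and Lck), while Cd3e was at -0.11 (SE 0.18). No listed macrophage, dendritic cell, B cell or T cell gene was at 0 in all libraries. The part of these cells in the class II decrease was not tested.

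The members were also set against the macrophage genes of the same library. The log2 ratio to the mean of the 12 macrophage genes was 1.94 to 2.14 in Control and 1.99 to 2.2 in 1C-MIM for H2-Aa, and 3.00 to 3.36 and 3.06 to 3.37 for Cd74. For all 7 genes the groups overlapped, with differences of group means between -0.18 (H2-Ab1) and 0.19 (Ciita). The differences depended on the macrophage gene used. Relative to Emr1 alone they were 0.20 (H2-Ab1) to 0.57 (Ciita), and relative to Csf1r alone -0.38 (H2-Ab1) to -0.006 (Ciita). The groups overlapped for each gene in both. Relative to the leukocyte phosphatase Ptprc, which itself was at -0.62 (SE 0.17, adjusted p = 0.021 by edgeR; 0.052 without Control 4 and 0.0596 without 1C-MIM 4), they lay between -0.33 and 0.05, again with overlap for each gene. None of these ratios was corrected for the length trend, and Ptprc (5568 bases), Csf1r (3875) and Emr1 (3245) are longer than the members other than Ciita. With the trend removed, log2 fold changes were -0.75 for Ptprc, -0.64 for Csf1r, -1.20 for Emr1 and -0.78 to -0.59 for the 7 members. The groups separated for Ctss: its ratio to the macrophage genes was 0.47 to 1.04 in Control and -0.52 to 0.16 in 1C-MIM, without overlap. Relative to Itgax, which fell by 1.79 (SE 0.19), Ctss differed by 0.07 with overlapping groups, while the members were higher in 1C-MIM by 0.85 to 1.23, without overlap for H2-Aa, H2-Eb1, H2-DMa and Cd74.

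**Figure D4:**
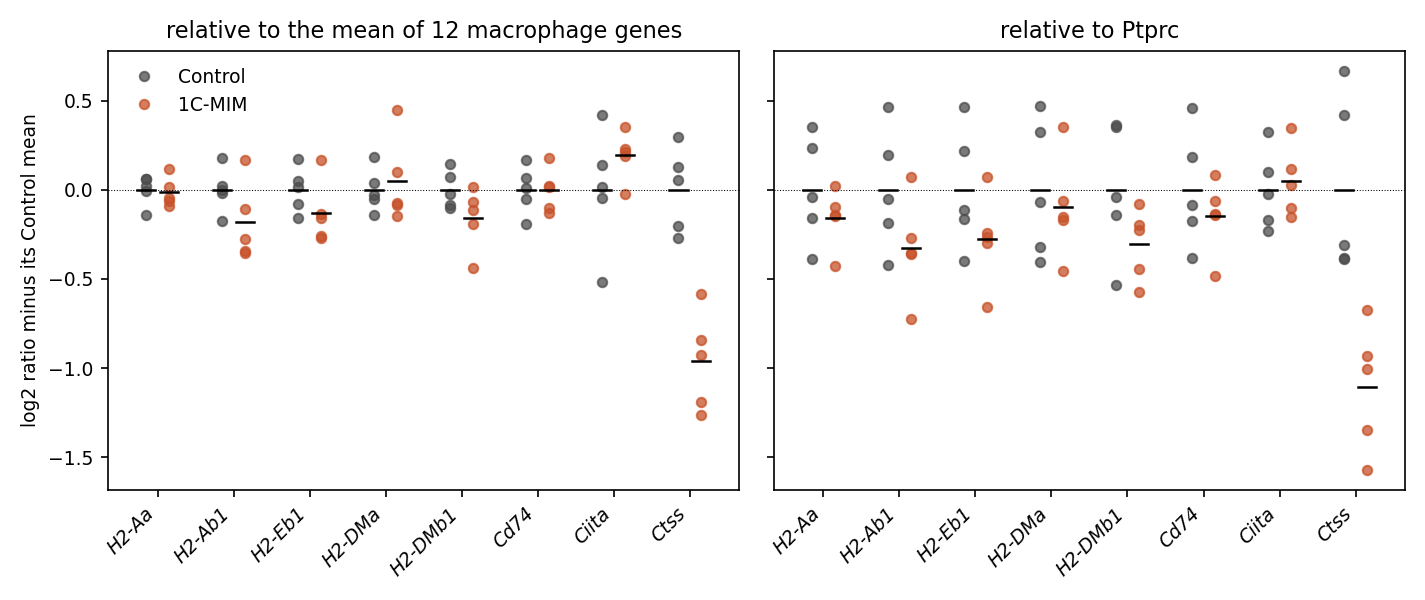
Log2 ratio of each class II gene and of Ctss to the mean of 12 macrophage genes (left) or to Ptprc (right), minus its Control mean (vertical axis), with a point per library and lines at group means. The 7 class II genes overlap between groups on both sides, and Ctss in 1C-MIM lies below all Control libraries.

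The tissue label was met by the levels of muscle genes: 8 fibre genes, among them Acta1, Ckm and Myh4, summed to 151200 to 193800 CPM. Libraries held 28521254 to 31771296 counts over 1 transcript per gene. Control 1 carried neural transcripts (8 genes summing to 36.9 CPM against 5.35 to 6.99 in the others) and was the second lowest Control for the summed class II level, and with Control 1 and Control 5 both left out all 7 members were still called lower. Endothelial genes, of which 4 of 6 were higher (1 of 6 with the length trend removed), summed to 162.1 to 232.2 CPM in Control and 231.5 to 274.6 in 1C-MIM. In the list of fibro-adipogenic progenitors 3 of 6 were lower (2 of 6 with the length trend removed). Among all tested genes 11.8% were lower and 9.78% higher.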

How the data were processed

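RNA-seq of total RNA from 10 mouse quadriceps, 5 per group, was analysed. The deposited count values are whole numbers per RefSeq transcript, not normalized by the authors, and a read can count for several isoforms. The deposited TPM and FPKM values were scaled by the authors for transcript length, per the file headers. TPM served for levels between genes and FPKM for transcript lengths. The submitters' processing notes name STAR, Salmon 1.5.2, featureCounts, Subread 2.0.1 and build GRCm39, with no roles. No label gives strandedness.

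For each of 24063 symbols the transcript with the largest total was kept. Counts were filtered with filterByExpr, scaled with TMM and tested with edgeR 4.0.16 (R 4.3.3), quasi-likelihood F test with robust prior, prior count 2 for log2 values, Benjamini-Hochberg over 13880 genes, threshold 0.05. The fit was tested on simulated data. Each library held 28521254 to 31771296 counts, and the tests rest on the spread between libraries.

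The members and lists were chosen with earlier results of these data known. Pathway genes named singly are up to 3 called genes with the smallest p per list, or the 2 with the highest level, and other names, among them Ifi30, Cst3, Ctsb, March1, Cd86, Cd40 and Irf1, were added after their values were seen. Genes most like the members were the 10 with the highest correlation of deviations within groups. Symbols follow the tables (March1 is Marchf1; Emr1 is Adgre1). Alternatives were other scalings and filters, DESeq2 1.42.0, limma-voom (limma 3.58.1), summed transcripts, blocks, removal of the length trend (natural splines with 3 inner knots as offsets) and libraries left out. Promoter windows came from RefSeq, build GRCm38.p6, and 4 of the 7 members matched. No coordinates of the deposited files were used. Values of 1 pathway gene and 1 marker gene are not reported here, although the list counts include them.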

Additional observations from a re-analysis of the deposited data

Results flagged for a closer look

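In 72 groups of 5 libraries checked over the members and tested pathway genes, 3 had a library far from the other 4, where chance gives about 1 in 20. Rfx5 was at 9.49 CPM in Control 5 and 11.5 to 12.3 in the other Controls. Cd40 was at 1.3 CPM in Control 3, the Control with the highest class II levels, and 0.572 to 0.769 in the others. Irf1 was at 15.8 CPM in 1C-MIM 3 and 10.99 to 11.94 in the others. No member had such a library.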

How the results depend on the processing

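H2-Aa, H2-Ab1, H2-Eb1, H2-DMa, H2-DMb1 and Cd74 kept their direction and call under all 23 alternatives that used both series of animal numbers, and Ciita under 18 of 23. The count of members called lower was 6 to 7 with 1 library left out, 0 in the series with 3 libraries per group, where all 7 had an unadjusted p under 0.05, and 5 in the other. Genes called lower numbered 1642, but 2896 with library totals, 976 without Control 1 and Control 5, 64 and 269 within the series, and 941 to 1885 with 1 library left out (941 without 1C-MIM 4 and 1057 without 1C-MIM 3). Pathway genes called lower numbered 9, but 3 and 4 within the series and 7 to 10 with 1 library left out. Pathway genes called higher numbered 0, but 1 with DESeq2, 2 with the length trend removed and 0 to 1 with 1 library left out (1 without Control 1). With replicate number as a replicate block, 2 pathway genes were higher, Cd274 (0.78, adjusted p = 0.00289 by edgeR) and Jak2, all 7 members stayed lower, and Psmb8, Psmb9 and Cd79a were called lower (adjusted p = 0.0118, 0.0477 and 0.0176 by edgeR). No label says that the numbers pair libraries. Deviations of same-numbered libraries correlated at -0.0752 to 0.387, and 4 of 10 libraries correlated best with their own number, so pairing was not assumed. Relative to the pan-leukocyte list in place of Ptprc, the difference became 0.13 for H2-Aa, 0.14 for Cd74 and 0.34 for Ciita, from -0.16, -0.15 and 0.05. Genes near 0 changed sign, namely Cd3e with the length trend removed (0.038) and without Control 2 (0.0073; -0.21 to 0.0073 with 1 library left out), and Tap2 without Control 3 (0.0037). The causes were not tested. Of the members, Ciita and H2-DMb1 had the fewest reads, 41 to 132 and 45 to 140 per library.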
